A study of Mus musculus with 12 samples.

Results

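The Hes and Hey genes encode basic helix-loop-helix (bHLH) repressors of transcription, and 7 genes are described here: Hes1, Hes5, Hes6, Hey1, Hey2, Heyl and the related repressor gene Bhlhe40. They were taken by the gene name that the scanner files give to their probes. Each gene had 1 probe, so that 7 of the 39429 distinct gene probes on the array are concerned, and all 7 passed the filter on dim probes that left 24146 genes, Hey2 only through the 2 knockdown groups. RNA came from mouse neural stem cells of the cerebral cortex of E12.5 embryos, and 12 samples were each hybridised to a 1-colour Agilent array. The 4 groups of 3 samples were cells with a JMJD3 shRNA given transforming growth factor beta (TGFb), the same cells given vehicle, cells with a random shRNA (control) given TGFb, and these control cells given vehicle. TGFb was used at 5 ng/ml for 2.5 h, and both lines carried their shRNA by stable transfection. The JMJD3 samples all come from 1 JMJD3 shRNA, and the labels do not say whether replicates were separate cultures. The p-values below thus reflect how far samples of a group lay apart, a spread that may be technical.

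When a ligand of the Delta or Jagged type binds a Notch receptor, the freed intracellular domain enters the nucleus and joins the DNA-binding protein RBPJ, and the Hes and Hey genes are classical targets of this complex. In the embryonic cortex, Hes1 and Hes5 keep neural stem cells undifferentiated by repressing proneural genes such as Neurog2, with co-repressors of the Groucho/TLE family. Hey1 and Hey2 act alongside them, Hes6 is known to oppose Hes1 and to favour neuronal differentiation, and Bhlhe40 (also called Dec1) is a repressor known from the circadian clock that hypoxia and TGFb induce in other cells. JMJD3, encoded by Kdm6b, is a demethylase of lysine 27 on histone H3, whose methylation marks genes repressed by Polycomb. The probes below are what was measured, and each is shown by the first 30 of its 60 bases, since every value rests on 1 probe a gene. Positions are those of the scanner files in mm9. Whether a probe lies in coding or untranslated sequence was not analysed here.
Hes1 probe (chr16:30067820-30067879, + strand): ttaaaatatcttcctttggggaagtttatt
Hes5 probe (chr4:154336347-154336406, + strand): acgatgatccttaaaggattcctttgtatg
Hes6 probe (chr1:93308264-93308323, - strand): tctagggcagaagtggccaatcttgagact
Hey1 probe (chr3:8663432-8663491, - strand): gatttgggctctaaaagtattgttttacag
Hey2 probe (chr10:30552729-30552788, - strand): ccagaggctcattgacaccaactcaaaaac
Heyl probe (chr4:122926975-122927034, + strand): aatcattttcttcaaggtctttgcccttct
Bhlhe40 probe (chr6:108616309-108616368, + strand): agcagcggatggagcgtccttgctaaaaag

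Promoter windows were at hand for 3 of the 7 genes, Hes5, Hes6 and Hey2. Those of Hes5 and Hey2, which were called higher in knockdown cells with vehicle (Hey2 not with every background correction), are shown because both hold the core of the RBPJ site, TGGGAA. The sequences are from RefSeq (GRCm38.p6), run from upstream to just past the start site, and have each TGGGAA, on either strand, in capitals.
Hes5 promoter (GRCm38.p6, chr4:154960673-154960972, + strand): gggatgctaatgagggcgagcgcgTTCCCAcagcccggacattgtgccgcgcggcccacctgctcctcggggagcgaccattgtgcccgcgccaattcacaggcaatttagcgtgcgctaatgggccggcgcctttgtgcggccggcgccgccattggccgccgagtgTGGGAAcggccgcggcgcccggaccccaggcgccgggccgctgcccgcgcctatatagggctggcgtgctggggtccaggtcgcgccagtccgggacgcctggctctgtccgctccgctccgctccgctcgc
Hey2 promoter (GRCm38.p6, chr10:30842734-30843033, - strand): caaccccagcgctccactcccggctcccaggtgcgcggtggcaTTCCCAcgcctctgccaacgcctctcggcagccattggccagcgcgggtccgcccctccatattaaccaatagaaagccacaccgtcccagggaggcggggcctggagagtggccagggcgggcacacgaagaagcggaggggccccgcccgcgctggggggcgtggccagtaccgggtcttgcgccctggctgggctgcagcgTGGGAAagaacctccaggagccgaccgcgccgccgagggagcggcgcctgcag
The Hes5 window holds TGGGAA at -226 and -82 bases from the start site, and the Hey2 window at -207 and -3. At least 1 match is present in 25.6% of 32851 promoter windows, and at least 2 are present in 3.79%. The GC-rich Smad element GGCGCC occurs 4 times in the Hes5 window and 1 time in the Hey2 window, and 11.9% of windows hold it. Neither window holds the Smad element CAGAC (49.6% of windows), the E-box CACGTG (7.15%), or the Hes-bound boxes CACGCG (9.27%) and CACNAG (42.5%), each searched on both strands. The 2 RefSeq windows of Hes6 hold no TGGGAA, and each holds 1 CAGAC. A match describes the letters only.

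Array brightness was even: the 75th percentile of processed signal was 3175 to 4462, between 70.7% and 78.7% of spots stood well above background, and saturation was seen at 0 spots. Kdm6b, the target of the shRNA, lay between -2.12 and -1.90 in the 6 knockdown samples and between -0.84 and -0.59 in the 6 control samples (log2 relative to the 75th percentile, the scale of all levels below). The difference was -1.40 ± 0.05 with TGFb and -1.16 ± 0.05 with vehicle (SE of the fit). The 10 neural stem cell markers, among them Nes, Sox2, Sox1 and Pax6, all passed the filter on dim probes. Most markers of 6 other cell types passed it too: 5 of 6 for neurons, 6 of 6 for the oligodendrocyte lineage and 4 of 5 for astrocytes. It was 4 of 6 for fibroblasts or meninges, 5 of 6 for microglia and 3 of 5 for endothelium. Some were bright, such as Olig2 (3.86), Map2 (3.39) and Itgam (1.80) in control cells with vehicle. Stmn2, Gjb6, Pdgfrb, Lum, Aif1, Cdh5 and Tie1 did not pass it. The arrays lie on 4 slides, and arrays of different groups on 1 slide deviated from their group means in the same direction in 12 of 12 pairs (r from 0.184 to 0.582 across genes, which are not independent), against 11 of 42 pairs on different slides. Values within slides are therefore given beside the called differences. Microarray RNA of whole cultures cannot tell fewer cells of a type from less RNA per cell.

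The Hey genes Hey1 and Heyl and the repressor gene Bhlhe40 were higher with TGFb in both lines. In knockdown and control cells Hey1 rose 2.19- and 2.05-fold, Heyl 3.75- and 2.15-fold, and Bhlhe40 1.45- and 1.27-fold. In knockdown cells 3 of 7 genes rose and 0 fell, where 9.49% of the 24146 genes were called and 4.74% rose. In control cells 3 of 7 rose and 0 fell, where 10.2% of all genes were called and 5.43% rose. The median log2 difference of the 7 genes was 0.34 in knockdown cells and 0.34 in control cells, against -0.02 and -0.01 over all genes. These calls are from limma with Benjamini-Hochberg adjustment over all genes at 0.05.

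Hey1, a Notch target that is also known to be induced by BMP and TGFb signals in other cells, gave the most uniform values. In knockdown cells it lay at 2.85, 2.69 and 2.70 with TGFb, against 1.63, 1.66 and 1.57 with vehicle (replicates 1, 2 and 3, here and below). In control cells it lay at 2.36, 2.46 and 2.35 with TGFb, against 1.35, 1.37 and 1.33 with vehicle. The 4 groups did not overlap, and the order ran from knockdown with TGFb through control with TGFb and knockdown with vehicle to control with vehicle. The TGFb difference was 1.13 ± 0.05 in knockdown cells (2.19-fold, 95% interval 2.02 to 2.37, adjusted p = 5.49e-08) and 1.04 ± 0.05 in control cells (2.05-fold, 1.90 to 2.22, adjusted p = 1.01e-07). Within slides it was 1.29 in knockdown cells on slide 3, and 0.99 and 1.12 in control cells on slides 2 and 3.

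**Figure D1:**
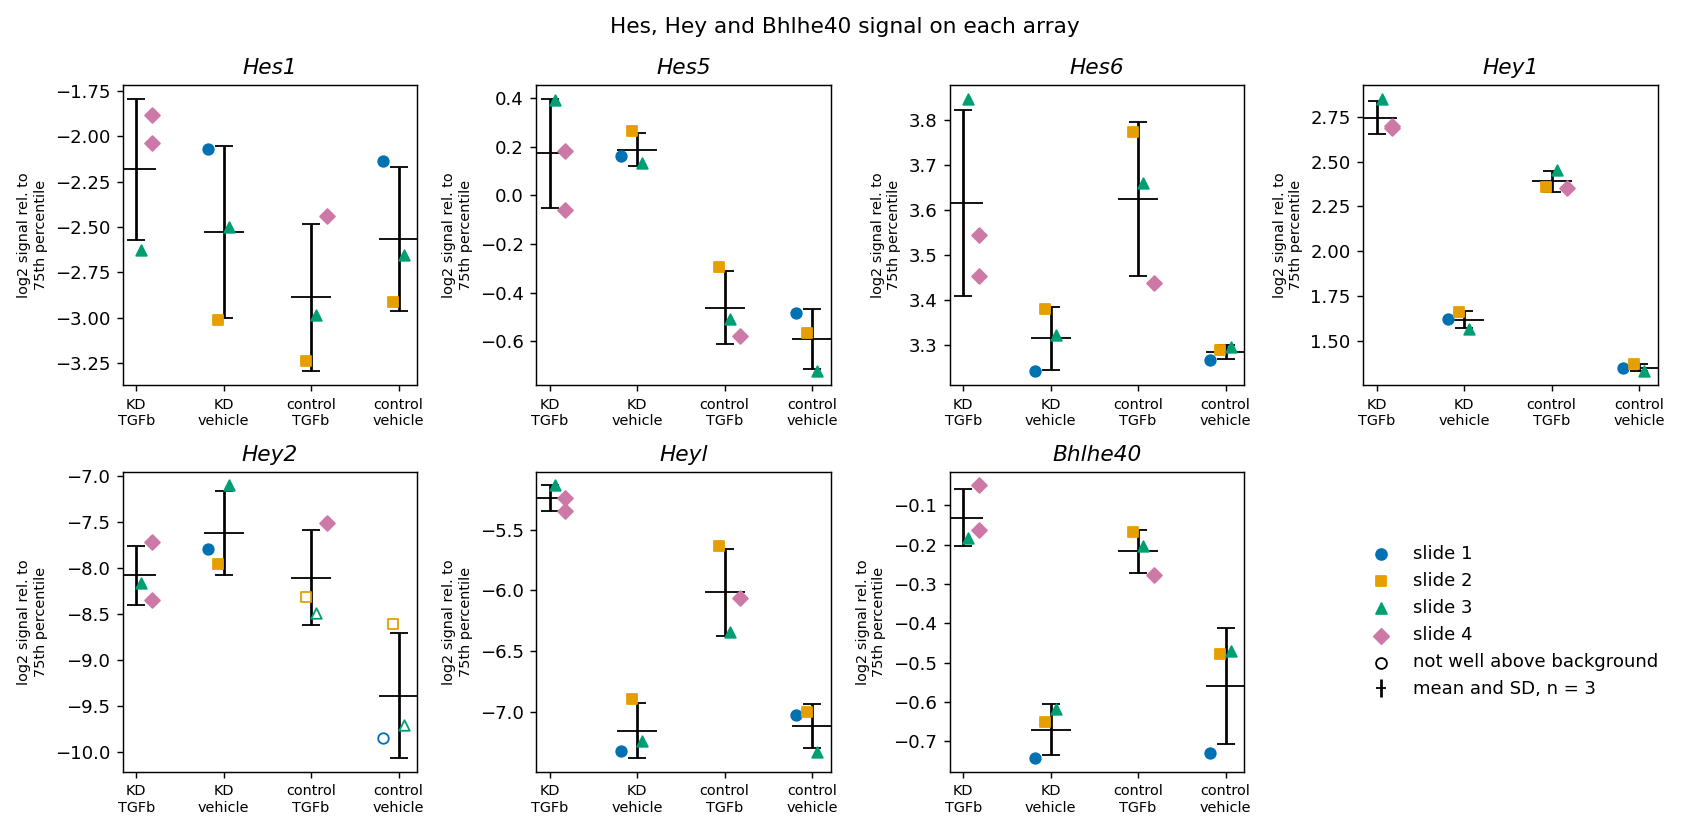
Level of each gene as log2 signal over the 75th percentile (vertical axis, a separate scale for each gene) in the 4 groups, with knockdown (KD) left of control and TGFb left of vehicle. Points are arrays, coloured by slide and open where not well above background, and bars are the mean and SD of 3 arrays. Hey1 separates all 4 groups, Hes5 separates the lines, and the Hes1 groups overlap.

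Heyl, the third Hey gene, was dim but well above background on all 12 arrays. With TGFb it lay at -5.14, -5.24 and -5.35 in knockdown cells, against -7.32, -6.89 and -7.23 with vehicle. In control cells it lay at -5.63, -6.34 and -6.06 with TGFb, against -7.02, -7.00 and -7.32 with vehicle. Knockdown cells with TGFb were highest, control cells with TGFb came next without overlap, and the 2 vehicle groups overlapped. The TGFb difference was 1.91 ± 0.20 in knockdown cells (3.75-fold, 2.78 to 5.05, adjusted p = 4.92e-05) and 1.10 ± 0.20 in control cells (2.15-fold, 1.59 to 2.89, adjusted p = 0.0030). Within slides it was 2.10 in knockdown cells on slide 3, and 1.36 and 0.98 in control cells on slides 2 and 3. With normexp background correction in place of the scanner software's, the differences were 0.78 in knockdown cells and 0.41 in control cells, and the second missed the threshold (adjusted p = 0.0538). With the authors' deposited values they were 0.71 and 0.37, and both passed.

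Bhlhe40 lay at -0.18, -0.05 and -0.16 in knockdown cells with TGFb, against -0.74, -0.65 and -0.62 with vehicle. In control cells it lay at -0.17, -0.20 and -0.28 with TGFb, against -0.73, -0.48 and -0.47 with vehicle. All 6 arrays with TGFb lay above all 6 with vehicle, while the lines overlapped under each treatment. The TGFb difference was 0.54 ± 0.07 in knockdown cells (1.45-fold, adjusted p = 0.000493) and 0.34 ± 0.07 in control cells (1.27-fold, adjusted p = 0.0102). Within slides it was 0.43 in knockdown cells, and 0.31 and 0.27 in control cells. The call in control cells was missed with array medians as the scale (0.34, adjusted p = 0.0641) and with only the groups compared in the fit (adjusted p = 0.0524).

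Hes6 lay at 3.85, 3.45 and 3.54 in knockdown cells with TGFb, against 3.24, 3.38 and 3.32 with vehicle. In control cells it lay at 3.77, 3.66 and 3.44 with TGFb, against 3.27, 3.29 and 3.30 with vehicle. All TGFb arrays lay above all vehicle arrays, yet the test was missed in both lines. The difference was 0.30 ± 0.10 in knockdown cells (adjusted p = 0.0999) and 0.34 ± 0.10 in control cells (adjusted p = 0.0571). With slide as a block it was 0.50 ± 0.06 in knockdown cells (adjusted p = 0.000264) and 0.43 ± 0.05 in control cells (adjusted p = 0.000192), and both passed. Within slides it was 0.53 in knockdown cells on slide 3, the only slide that held both treatments of that line. In control cells it was 0.48 and 0.36 within slides 2 and 3. The blocked difference in knockdown cells thus rests in part on slide terms fitted from the other groups. The pooled test in control cells was passed without control TGFb replicate 3 (0.43, adjusted p = 0.0189), knockdown TGFb replicate 1 (0.34, adjusted p = 0.0151) or knockdown TGFb replicate 2 (0.34, adjusted p = 0.0444). Including Hes6, 4 of the 7 genes had TGFb arrays that did not overlap the vehicle arrays in knockdown cells, all higher, where 9.4% of all genes did so. In control cells 5 of 7 were higher without overlap, against 10.5% of all genes, the fifth being the dim Hey2.

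The other genes gave no TGFb call in either line. Hes5 lay at 0.39, -0.06 and 0.19 in knockdown cells with TGFb, against 0.16, 0.27 and 0.14 with vehicle. In control cells Hes5 lay at -0.29, -0.51 and -0.58 with TGFb, against -0.48, -0.57 and -0.72 with vehicle. The treatments overlapped in each line, and the 95% interval of the log2 difference ran from -0.26 to 0.23 in knockdown cells and from -0.11 to 0.37 in control cells. Hey2, whose signal was well above background on 1 of 3 control arrays with TGFb and 0 of 3 with vehicle, differed by -0.46 ± 0.40 in knockdown cells (adjusted p = 0.567). In control cells no size or bound in processed signal is stated for Hey2, since neither group was well above background throughout. The fitted value is plotted in the figures only. The limma test there was missed (adjusted p = 0.0685) except without control vehicle replicate 2, the brightest of its group (adjusted p = 0.0189). The log2 differences of Hey2 were -0.01 in knockdown and 0.23 in control cells with normexp, and -0.13 and 0.17 with the authors' values.

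Marker levels of other lineages also moved with the TGFb treatment. The summed level of the 6 oligodendrocyte-lineage markers was 3.17 to 3.30 in knockdown cells with TGFb against 3.63 to 3.73 with vehicle, and 3.07 to 3.18 in control cells with TGFb against 3.87 to 4.01 with vehicle (log2 of the summed signal relative to the 75th percentile). Of these 6, 0 rose and 2 fell in each line, Olig2 and Pdgfra, where 9.49% of all genes were called in knockdown cells and 10.2% in control cells. The summed level of the 4 fibroblast or meninges markers that passed the filter was 0.53 to 0.74 against 0.82 to 1.07 in knockdown cells, and 0.22 to 0.51 against 0.66 to 0.76 in control cells, with 1 rise and 0 falls, and 1 rise and 1 fall. Of 4 measured astrocyte markers Gfap alone was called, higher with TGFb by 0.46 and 0.93, and of 5 measured microglia markers Tmem119 alone, higher by 1.82 and 1.60, while Aif1 did not pass the filter. In control cells the summed astrocyte level was 2.00 to 2.10 with TGFb against 1.78 to 1.92 with vehicle, and the summed neuron level was 3.27 to 3.34 against 3.39 to 3.50, with 0 of 5 neuron markers called. Of the 10 neural stem cell markers 2 rose, Sox1 and Sox9, and 1 fell, Sox2, in each line. The part of other cell types in the Hes and Hey values was not tested.

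**Figure D2:**
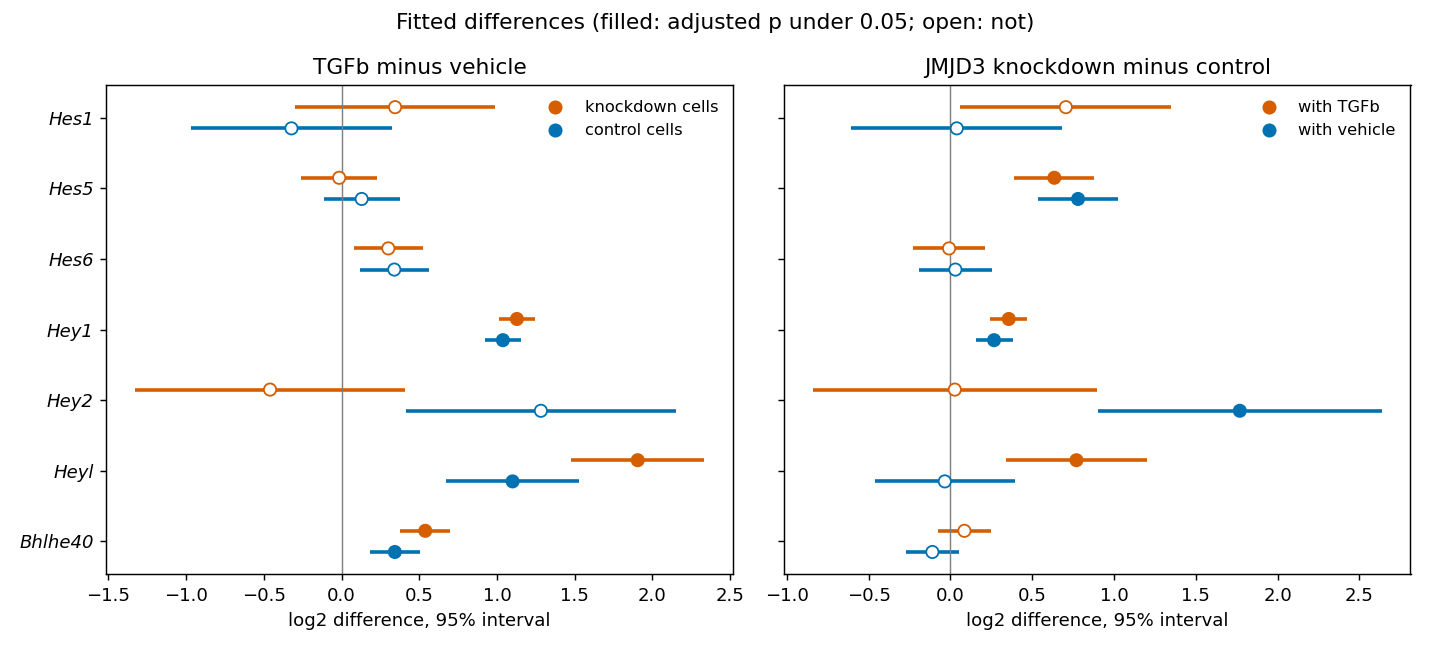
Fitted log2 differences with 95% intervals for the 7 genes. The left panel has TGFb minus vehicle in knockdown and in control cells, and the right panel has JMJD3 knockdown minus control with TGFb and with vehicle. Filled points passed the adjusted threshold of 0.05. Hey1 passed in all 4 comparisons, Hes5 in both on the right, and the intervals of Hey2 are the widest.

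JMJD3 knockdown went with a higher level of Hes5 under both treatments, of Hey1 to a smaller degree under both, of Heyl with TGFb and, depending on the background correction, of Hey2 with vehicle. With TGFb 3 of 7 genes were higher and 0 lower, where 29% of all genes were called and 12% were higher. With vehicle 3 of 7 were higher and 0 lower, where 27.8% of all genes were called and 3020 of the 24146 were higher. These 3 include Hey2, which passed the filter only through the knockdown groups. The count was 2 where probes had to be well above background on all 12 arrays. With normexp and with the authors' values 1 of 7, Hes5, was higher. The median log2 difference of the 7 genes was 0.36 with TGFb and 0.04 with vehicle, against -0.01 and -0.02 over all genes. Over 25% of all genes differed between the lines under each treatment, so that a call in these comparisons is common.

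Hes5, a main Notch effector of cortical stem cells, separated the lines under both treatments. With TGFb the knockdown arrays given above lay between -0.06 and 0.39, against -0.58 to -0.29 in control cells. With vehicle they lay between 0.14 and 0.27, against -0.72 to -0.48. All 6 knockdown arrays lay above all 6 control arrays. The difference was 0.64 ± 0.11 with TGFb (1.55-fold, 95% interval 1.31 to 1.84, adjusted p = 0.0012) and 0.78 ± 0.11 with vehicle (1.72-fold, 1.45 to 2.03, adjusted p = 0.000318). Within slides it was 0.90 and 0.64 with TGFb, on slides 3 and 4, and 0.65, 0.83 and 0.86 with vehicle, on slides 1, 2 and 3. The order of the groups followed the line, and the treatments overlapped within each.

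Hey1 was higher in knockdown cells by 0.36 ± 0.05 with TGFb (1.28-fold, adjusted p = 0.000347) and by 0.27 ± 0.05 with vehicle (1.20-fold, adjusted p = 0.0025). Within slides it was 0.40 and 0.34 with TGFb, and 0.28, 0.29 and 0.23 with vehicle. With vehicle the call was missed with normexp (0.24, adjusted p = 0.062), with the authors' values (0.25, adjusted p = 0.0595) and with array medians as the scale (0.28, adjusted p = 0.0527). Heyl was higher in knockdown cells with TGFb by 0.77 ± 0.20 (1.71-fold, adjusted p = 0.0114) and differed by -0.03 ± 0.20 with vehicle (adjusted p = 0.946). The call with TGFb was missed with normexp (0.32, adjusted p = 0.0746) and without control TGFb replicate 2 (0.61, adjusted p = 0.0514). That replicate is the lowest of its group, at -6.34. Within slides 3 and 4 the difference was 1.20 and 0.77.

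Hey2 was the dimmest relative to its background, well above it on 7 of 12 arrays. It lay at -8.16, -8.34 and -7.72 in knockdown cells with TGFb, against -8.31, -8.48 and -7.51 in control cells with TGFb. With vehicle it lay at -7.79, -7.95 and -7.10 in knockdown cells, against -9.85, -8.60 and -9.70 in control cells. The vehicle groups did not overlap, and knockdown with vehicle, knockdown with TGFb and control with TGFb overlapped one another. All 3 knockdown arrays with vehicle were well above background and none (0) of the control arrays with vehicle was. In processed signal the mean of Hey2 was thus at least 1.89-fold higher in knockdown cells (measured means -7.61 and -9.38, adjusted p = 0.0059). This bound holds for that background correction only, and the differences with the other corrections, given below, are smaller than it. Since Hey2 passed the filter only through the knockdown groups, where it was high with vehicle, this call is a description and supports nothing further. Within slides 1, 2 and 3 the log2 difference was 2.06, 0.65 and 2.60. For this bound each dim array was given the dimmest signal of a probe well above background, or the Hey2 signal itself where that was greater. In processed signal the means were 21.5 ± 6.29 in knockdown cells and 6.12 ± 3.12 in control cells with vehicle (SD, n = 3). With normexp the log2 difference was 0.15 ± 0.11 (adjusted p = 0.394) and with the authors' values 0.24 ± 0.08 (adjusted p = 0.0617), neither of which passed. With slide as a block as well it missed with normexp (adjusted p = 0.195) and passed with the authors' values (adjusted p = 0.0236), at the same sizes.

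**Figure D3:**
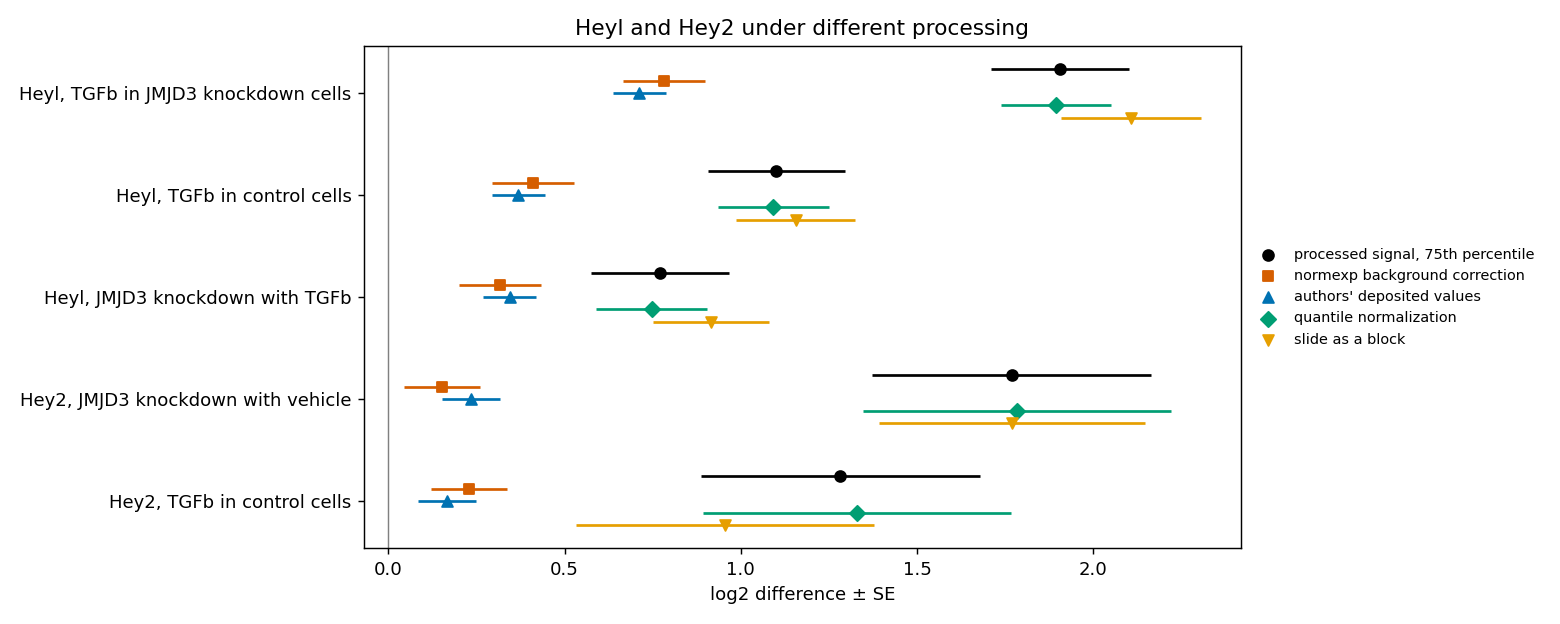
Log2 differences (points) with SE (bars) of the dim genes Heyl and Hey2 under 5 ways of processing, with 1 row for each comparison. With normexp or the authors' values the TGFb differences of Heyl and its knockdown difference with TGFb were smaller than with the processed signal and of the same sign. The knockdown difference of Hey2 with vehicle was 0.15 with normexp and 0.24 with the authors' values.

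Bhlhe40 and Hes6 gave no knockdown call. Bhlhe40 differed by 0.09 ± 0.07 with TGFb and -0.11 ± 0.07 with vehicle, where it passed without control vehicle replicate 1 (-0.20, adjusted p = 0.0393). Hes6 differed by -0.01 ± 0.10 with TGFb (95% interval -0.23 to 0.21) and by 0.03 ± 0.10 with vehicle (-0.19 to 0.25). The knockdown comparisons also came with neuron marker levels: the summed level of the 5 measured markers was 3.42 to 3.58 in knockdown cells with TGFb against 3.27 to 3.34 in control cells, and 3.54 to 3.64 against 3.39 to 3.50 with vehicle. Of these 5, Dcx, Map2 and Syt1 were higher and Rbfox3 lower with TGFb, and Dcx and Syt1 were higher and Rbfox3 lower with vehicle, while Stmn2 did not pass the filter. Of all genes 29% were called with TGFb and 27.8% with vehicle. Gfap was higher by 0.50 with TGFb and 0.98 with vehicle, and the microglia marker P2ry12 by 0.98 and 1.04, each the 1 called gene of its list. Pdgfra of the oligodendrocyte lineage was lower (-1.79 and -1.97), and with vehicle Olig2 was lower (-0.29). The summed oligodendrocyte-lineage level given above lay lower in knockdown than in control cells with vehicle, without overlap. Of the 10 neural stem cell markers 3 were higher and 2 lower with TGFb, and 3 higher and 3 lower with vehicle. Sox2 (0.56 with TGFb and 0.74 with vehicle) and Slc1a3 (0.71 and 0.68) were higher under both treatments. Sox1 (-0.23 and -0.37) and Nes (-0.25 and -0.33) were lower under both. The part of these cell types in the Hes and Hey values was not tested.

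Hes1, the founding Notch effector whose protein is known to oscillate in neural progenitors, had the widest spread of the well-measured genes. It lay at -2.62, -1.88 and -2.04 in knockdown cells with TGFb, against -2.07, -3.01 and -2.50 with vehicle. In control cells it lay at -3.24, -2.99 and -2.44 with TGFb, against -2.13, -2.91 and -2.65 with vehicle. Each group overlapped the next, and no comparison passed: the knockdown difference with TGFb was 0.71 ± 0.29 (adjusted p = 0.0979), which passed without control TGFb replicate 3 (0.93, adjusted p = 0.044) or knockdown TGFb replicate 1 (0.93, adjusted p = 0.0436), and the TGFb difference in control cells -0.32 ± 0.29 (adjusted p = 0.70).

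The spread of Hes1 followed the slides. Its deviations from the group means averaged 0.44 on slide 1, -0.39 on slide 2, -0.15 on slide 3 and 0.30 on slide 4. Slides held 96.9% of its variation within groups, against a median of 61.3% over all genes, and 2.04% of genes had as large a share or larger. Its residual SD was 0.42 without and 0.09 with the slide term, where the median gene had 0.12 and 0.09. Hes6 followed the slides too, with 91.5%.

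With slide as a block, Hes1 was lower after TGFb in control cells (-0.35 ± 0.08, adjusted p = 0.0189), and within slides 2 and 3 the difference was -0.33 and -0.33. With slide as a random block this call was not made (-0.33 ± 0.19, adjusted p = 0.365). In knockdown cells the blocked TGFb difference was 0.01 ± 0.10 (adjusted p = 0.965), with -0.13 within slide 3. With TGFb the blocked knockdown difference was 0.40 ± 0.08 (adjusted p = 0.0030), with 0.36 and 0.48 within slides 3 and 4, and with vehicle it was 0.04 ± 0.07. With slide as a random block the knockdown difference with TGFb was 0.52 ± 0.19 (adjusted p = 0.0492). The 2 calls of Hes1 under the fixed block were also made with normexp and with the authors' values. Under the block 5 of 7 genes were called for TGFb in control cells, 4 higher and 1 lower, where 12% of all genes were called. It was 4 of 7 for TGFb in knockdown cells (7.89% of all genes) and 4 of 7 for knockdown with TGFb (37%). Without the block 3 were called in each of these comparisons, and the added calls are those of Hes1 and Hes6. Vehicle and TGFb arrays of the knockdown line shared only slide 3.

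**Figure D4:**
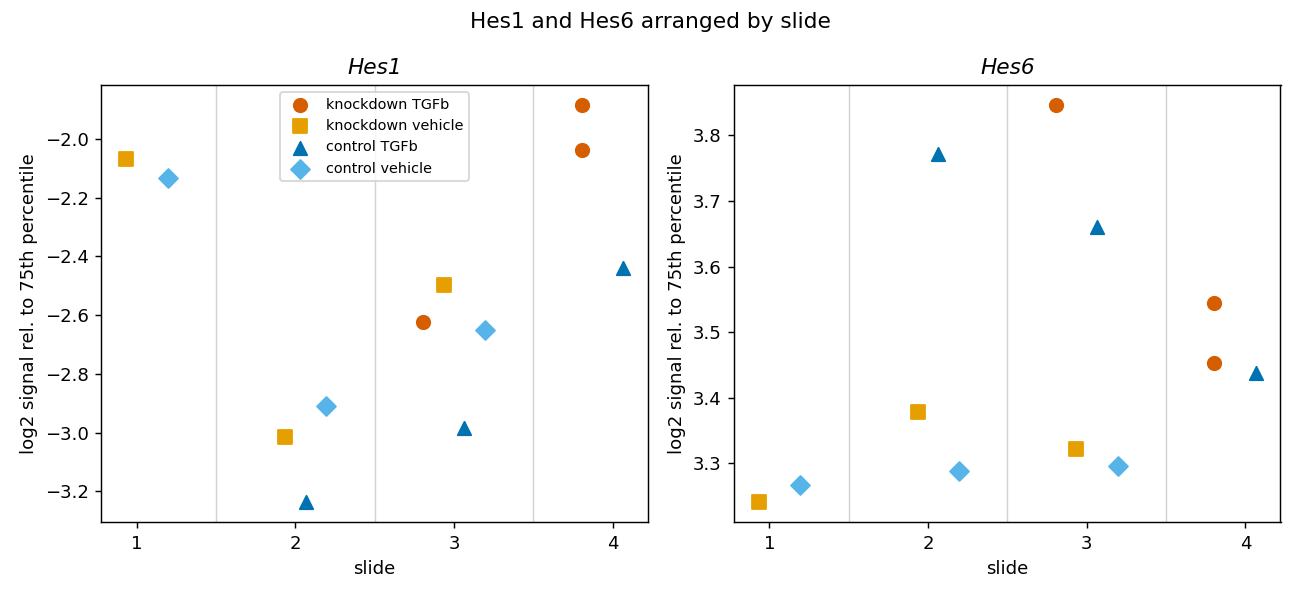
Log2 signal relative to the 75th percentile of Hes1 and Hes6, with arrays arranged by slide (horizontal axis) and marked by group. Within slides 2 and 3 the control TGFb array of Hes1 lies 0.33 below the control vehicle array, and for Hes6 it lies 0.48 and 0.36 above.

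No Hes or Hey gene passed the test of the difference between the TGFb responses of the lines (0 of 7, by limma, where 0.087% of all genes, 21 in number, were called), and 2 had an unadjusted p under 0.05. These were Hey2 (adjusted p = 0.699), whose size is not given because control vehicle arrays were below background and whose unadjusted p was 0.147 with normexp, and Heyl, at 0.81 ± 0.28 (adjusted p = 0.78). Under the slide block 0 of 7 passed as well, where 0.186% of all genes were called, with Heyl at 0.95 ± 0.22 (adjusted p = 0.226) and Hes1 at 0.36 ± 0.11 (adjusted p = 0.381). For Hey1 the 95% interval of the difference ran from -0.07 to 0.25 and for Bhlhe40 from -0.03 to 0.42. The SE of a difference of responses had a median of 0.14 over all genes, against 0.10 between 2 groups. The comparisons of the 2 lines share their samples with the TGFb comparisons, and their values are set side by side only.

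The genes upstream were measured on the same arrays. Of 24 Notch receptors, ligands and modulators, all of which passed the filter, 8 rose and 2 fell with TGFb in knockdown cells, and 7 rose and 2 fell in control cells, with a median of 0.08 and 0.03. Of all genes 9.49% were called in knockdown cells and 10.2% in control cells. Nrarp, a target and feedback inhibitor of Notch, rose by 1.70 ± 0.06 in knockdown cells and 1.14 ± 0.06 in control cells. The receptor genes Notch1 (1.11 and 0.92), Notch4 (0.59 and 1.01) and Notch3 (0.52 and 0.61) rose, as did the ligand gene Jag1 (0.54 and 0.42). The ligand gene Dll1 was lower with TGFb (-0.29 ± 0.04 in knockdown cells and -0.61 ± 0.04 in control cells). Knockdown went with 7 higher and 0 lower with TGFb and 7 higher and 1 lower with vehicle. Of all genes 29% were called with TGFb and 27.8% with vehicle, so that calls in this list were about as common as over all genes. Dtx1, a ubiquitin ligase of the pathway, differed by 1.90 and 1.92, and Notch3 by 0.74 and 0.83. The medians of the 24 genes were 0.05 and 0.02.

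**Figure D5:**
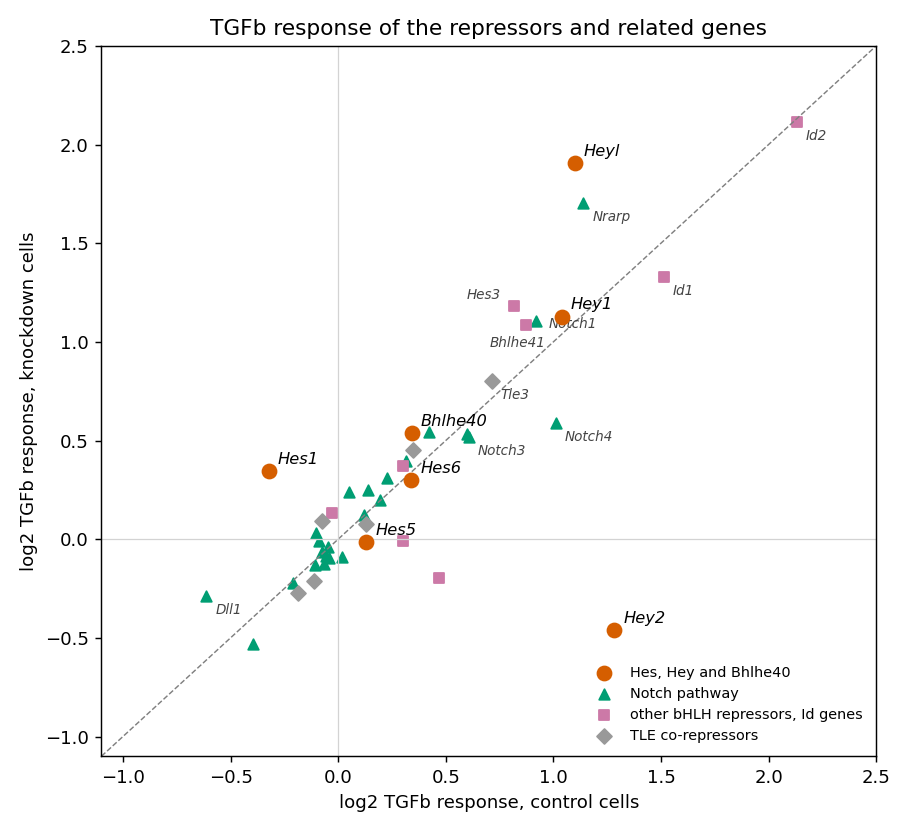
Log2 TGFb response in knockdown cells (vertical axis) against that in control cells (horizontal axis) for the 7 genes and 3 lists of related genes. The dashed line marks equal responses. Heyl (1.91 in knockdown and 1.10 in control cells) and Nrarp (1.70 and 1.14) lie above it, and Id2 lies on it. Hey2 is plotted far below it, but neither control group was well above background throughout, so that its place gives no size.

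Of 9 other bHLH repressor and Id genes 8 passed the filter (Helt did not), and 5 rose with TGFb in knockdown cells and 6 in control cells, with 0 lower in either. Of all genes 4.74% rose in knockdown cells and 5.43% in control cells. The Id proteins bind bHLH partners without contacting DNA: Id2 rose by 2.12 ± 0.05 and 2.13 ± 0.05, and Id1 by 1.33 ± 0.08 and 1.51 ± 0.08. Bhlhe41 (Dec2), the closest relative of Bhlhe40, rose by 1.09 ± 0.09 and 0.87 ± 0.09. Hes3, another Hes gene, rose by 1.18 ± 0.18 in knockdown cells and 0.82 ± 0.18 in control cells. Knockdown went with 2 higher and 2 lower with TGFb, and 2 higher (Id3 and Id4) and 1 lower (Hes3) with vehicle, where 29% and 27.8% of all genes were called. The list's medians were 0.73 and 0.64 for TGFb, and 0.07 and 0.10 for knockdown.

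Most Groucho and TLE genes, whose proteins the Hes and Hey repressors recruit, were lower in knockdown cells. Of 6, all of which passed the filter, 4 were lower and 0 higher with TGFb, where 17% of all genes were lower. With vehicle 4 were lower and 1, Tle4, was higher (0.18, adjusted p = 0.0419), where 15.3% of all genes were lower, with medians of -0.65 and -0.65 against -0.01 and -0.02 over all genes. Tle3 differed by -0.71 ± 0.06 with TGFb and -0.80 ± 0.06 with vehicle, Tle1 by -0.62 ± 0.06 and -0.72 ± 0.06, Tle2 by -0.69 ± 0.10 and -0.60 ± 0.10, and Tle6 by -0.81 ± 0.08 and -0.71 ± 0.08. With TGFb Tle3 rose by 0.80 ± 0.06 in knockdown cells and 0.71 ± 0.06 in control cells and Tle1 by 0.45 ± 0.06 and 0.35 ± 0.06. In each line 2 of 6 were higher and 0 lower, where 4.74% of all genes rose in knockdown cells and 5.43% in control cells.

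Among 9 neurogenic genes listed as held down by Hes proteins 7 passed the filter (Neurod4 and Atoh1 did not), and both directions occurred. With TGFb 1 rose and 2 fell in knockdown cells, and 1 rose and 3 fell in control cells, where 9.49% and 10.2% of all genes were called. Neurog2, a proneural factor, rose by 0.92 ± 0.10 and 1.60 ± 0.10. Gadd45g, a growth-arrest gene, was lower (-0.89 ± 0.09 and -0.95 ± 0.09), and so was Dll1, as above. Insm1, a factor of basal progenitors, differed by -0.12 ± 0.08 in knockdown cells and was lower in control cells (-0.96 ± 0.08). It was the 1 gene of the list that passed the test of the difference of responses (0.83 ± 0.11, adjusted p = 0.026). Insm1 was also lower in knockdown than in control cells (-0.89 ± 0.08 with TGFb and -1.72 ± 0.08 with vehicle). Of the TGFb target genes chosen to check the treatment, Smad7, Skil, Pmepa1, Tgif1 and Ldlrad4 rose in both lines, with Pmepa1 at 4.38 in knockdown cells and 3.78 in control cells, Smad7 at 3.31 and 2.83, and Tgif1 at 0.69 and 0.55.

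For each gene with a call, the 3 genes with the most similar profile over the 12 arrays were taken by the root mean square difference of mean-centred log2 values. For Hey1 these were Spon2 (0.090), the receptor-regulated Smad gene Smad9 (0.104) and Bhlhe41 (0.108). For Heyl they were Nrarp (0.232), the immediate early gene Ier3 (0.242) and Lrrc4 (0.261). For Bhlhe40 they were Peg13 (0.076), Kifc3 (0.085) and Slc25a25 (0.086), and for Hes5 they were Fmo5, the TGFb-family ligand gene Gdf1 and the homeobox gene Meis3 (0.090 to 0.096). For Hey2 the nearest were Zfp385b, Bcl6b and Adamts1, at 0.452 to 0.488, farther than for the other 4 genes. These distances are descriptions, and genes that change more, or are measured less well, lie farther from any other gene.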

How the data were processed

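RNA of 12 samples was measured on 1-colour Agilent mouse arrays. Spot intensity (linear scale) comes from the deposited scanner files, whose processed signal was background-corrected by Agilent Feature Extraction 10.7.3.1, per the file headers. The authors also deposited a table of log2 values, whose 12 columns each matched their own array best (Spearman 0.992 to 0.995) and share a median of 7.93. How that table was background-corrected and centred is not given in the sources used here. RNA was amplified from oligo-dT and labelled with Cy3, per the labels.

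After leaving out control and outlier spots, the spots of a probe were averaged on the log2 scale and set relative to their array's 75th percentile. The 29968 probes that were well above background throughout some group were kept, and the brightest kept probe stood for its gene. Probes were named through accessions in RefSeq (GRCm38.p6, names only; 26055 matched, and 13374 kept the file's name). Groups came from the labels. One linear model over all arrays was fitted in R 4.3.3 using limma 3.58.1, with a trended prior, two-sided tests, a Benjamini-Hochberg threshold of 0.05 over 24146 genes, and 5 comparisons (TGFb in each line, knockdown with TGFb, knockdown with vehicle, and the difference between the TGFb responses). The fit was tested on simulated data with independent noise on each array and no slide effect, so that this test did not cover the shared slides. The number of arrays limits the precision.

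Same-numbered replicates deviated together in 6 of 18 pairs of arrays. The 3 pairs of vehicle arrays share slides and correlated (r 0.248 to 0.582), so that the numbers pair the samples for knockdown with vehicle and not in the other comparisons. The named genes are the 7 genes, Kdm6b, called members of the lists (up to 6 a list and comparison, or any that stands beside one of the 7), and the 3 nearest profiles of each called gene. The genes, lists and tests were chosen with earlier results of these data known. The alternatives were normexp (offset 50), other scalings, filters and probe rules, slide or replicate number as a block, other priors, weights, samples and thresholds, the deposited log2 table, and leaving out each array. Slide as a block combined with normexp or with the authors' values was added after seeing the data, for the calls that the block changes and for Hey2. No spot was saturated, so only background gives bounds. Values of some genes in the lists are not reported here.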

Additional observations from a re-analysis of the deposited data

How the results depend on the processing

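Of the results above, the calls of Hey1 with TGFb in both lines, Hes5 with knockdown under both treatments, Hey1 with knockdown under TGFb, and Heyl and Bhlhe40 with TGFb in knockdown cells passed under each of the 14 alternatives and each array left out. The count of Hes and Hey genes called was 5 with slide as a block for TGFb in control cells (5 also with normexp and 5 with the authors' values added to the block), against 3, and 1 with normexp and 1 with the authors' values for knockdown with vehicle, against 3. For the other comparisons and alternatives it stayed within 1.5 times of the value given. With 1 array left out the counts ran from 3 to 3 for TGFb in knockdown cells, 3 to 4 in control cells, 2 to 4 for knockdown with TGFb, 3 to 4 with vehicle and 0 to 0 for the difference of responses. With the replicate block the counts were 3, 3, 3, 3 and 0, and the block changed no call of the 7 genes. Bhlhe40 in control cells missed the threshold with array medians (0.34, adjusted p = 0.0641) and with only the groups compared (adjusted p = 0.0524), and Hes6 passed there with normexp (0.38, adjusted p = 0.0346), array weights (0.36) and slide as a random block (0.40 in knockdown and 0.38 in control cells). Hes1 for knockdown with TGFb passed with array weights (0.86, adjusted p = 0.0178), slide as a random block (0.52, adjusted p = 0.0492), and without control TGFb replicate 3 (0.93) or knockdown TGFb replicate 1 (0.93). The cause was not tested. Signs turned only for values near 0 that no fit called. Hes5 with TGFb in knockdown cells (-0.02) was 0.026 with normexp, 0.22 with the slide block, 0.10 with the random block, 0.016 with the authors' values, and -0.13 to 0.10 with 1 array left out. Heyl for knockdown with vehicle (-0.03) was 0.0072 with array weights, 6e-04 with the authors' values, and -0.16 to 0.051. Hes6 for knockdown with TGFb (-0.01) was 0.022 with quantile normalization, 0.11 with the slide block, 0.054 with the random block, 0.0071 with the authors' values, and -0.12 to 0.072. Hey2 for knockdown with TGFb (0.03) was -0.084, -0.13, -0.041 and -0.058 with normexp, the slide block, the random block and the authors' values, -0.090 and -0.12 with the slide block added to normexp and to the authors' values, and -0.16 to 0.32. Hes6 in the difference of responses (-0.04) was 0.077 with the slide block, 0.024 with the random block, and -0.15 to 0.042. For knockdown with vehicle, Hes1 (0.04) ran from -0.19 to 0.28 and Hes6 (0.03) from -0.0028 to 0.067.

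Counts over all genes moved by over 1.5 times at an adjusted p under 0.01 (1391, 1571, 4568, 4360 and 4, for TGFb in knockdown and control cells, knockdown with TGFb and with vehicle, and the difference, against 2291, 2451, 6998, 6722 and 21) and with array medians (1470 for TGFb in knockdown cells, 4344 for knockdown with vehicle, 7 for the difference). The difference count was 45 with the slide block, 95 with the random block, 11 with the replicate block, 45 with array weights, and 57 and 56 with the added settings. With 1 array left out it ran from 4 (without control vehicle replicate 3) to 27. The background correction limits Heyl and Hey2, whose signals are close to background.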

Other observations

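The slide-wise deviations of Hes1 were shared with other genes. Over 24078 genes with a value on every array, the deviations of 1389 genes (5.77%) from their group means correlated with those of Hes1 above 0.9 over the 12 arrays, which share 4 slides and 4 groups. The genes whose deviations lay nearest to those of Hes1, by root mean square difference, were Rpusd2 (0.044), the replication-dependent histone gene H3c3 (0.046), the cell cycle kinase gene Cdk1 (0.050), Pde4c (0.052) and Sult2a8 (0.053). They were chosen after their values were seen, and the cause of the shared deviations was not tested.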
